A study of Mus musculus with 2 samples.

Results

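The interferon regulatory factors are a family of transcription factors, of which 8 genes were examined: *Irf1*, *Irf2*, *Irf3*, *Irf4*, *Irf5*, *Irf7*, *Irf8* and *Irf9*. The members were chosen by name. They are represented by 15 of the 26968 protein-coding RefSeq transcripts in the deposited table and by 8 of the 20250 named genes, and all 8 had a mean FPKM of at least 1 over both libraries, as did 10131 genes in all, which are called the genes tested although no statistical test was possible. FPKM is a count of fragments scaled by transcript length and by the fragments mapped in the library, so levels of different genes can be set side by side.

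Steady state RNA was compared between 2 cell types by strand-specific sequencing of rRNA-depleted total RNA, with 1 library each and on the C57BL/6 strain background. The pre-pro-B cells lacked *Ebf1* (Ebf1 -/-), came from livers of female embryos and grew with Il-7 (5 ng/mL), Scf (10 ng/mL) and Flt3l (10 ng/mL). The pro-B cells lacked *Rag2* (Rag2 -/-), came from bone marrow of adult males and grew with Il-7 (5 ng/mL) alone. Both were maintained on OP-9 stroma. Cell type, genotype, sex, age, tissue of origin and cytokines changed together and cannot be told apart, and no difference has a replicate check. The targeted genes were lower in the library of their own null cells but not at 0: the FPKM of *Ebf1* was 64.0 in pre-pro-B and 273 in pro-B cells, and that of *Rag2* was 34.5 and 22.9. Which exons the reads came from cannot be read from an FPKM. The table accounted for 93.2% and 93.3% of the mapped fragments, and each library was sequenced to nominally 90000000 reads.

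Interferon regulatory factors share an amino-terminal DNA-binding domain that reads GAAA-containing sites, and differ in the partners and signals that act through the rest of the protein. Interferons bound at the cell surface activate Janus kinases and STAT proteins, and Irf9 joins STAT proteins in the complex that switches on interferon-stimulated genes. Irf3 and Irf7, and in many cells Irf5, are activated by kinases downstream of sensors of foreign nucleic acid. Irf4 and Irf8 are mainly expressed in hematopoietic cells, where they bind DNA with Ets factors such as PU.1 and act in lymphoid, dendritic and myeloid development.

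Of the 8 members, only *Irf4* exceeded a 2-fold higher level in pro-B cells, 5 were lower by 2-fold or more (*Irf1*, *Irf5*, *Irf7*, *Irf8* and *Irf9*), and 2 lay within 2-fold (*Irf2* and *Irf3*). These counts used the log2 ratio of both FPKM (pro-B over pre-pro-B), summed over the coding transcripts of a gene, after adding 1 to both. Of all genes tested, 12.2% were higher by that measure and 17.9% were lower, so the count of higher members was near the share over all genes and the count of lower members was above it. The median log2 ratio of the members was -1.42, against -0.13 for all genes tested. The 95% limits that Cuffdiff gave for each library, summed over transcripts, overlapped between the cell types for each of the 8 genes. These limits describe 1 library and are no replicate error. In bulk RNA, fewer cells with a transcript and less of it per cell cannot be told apart.

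**Figure D1:**
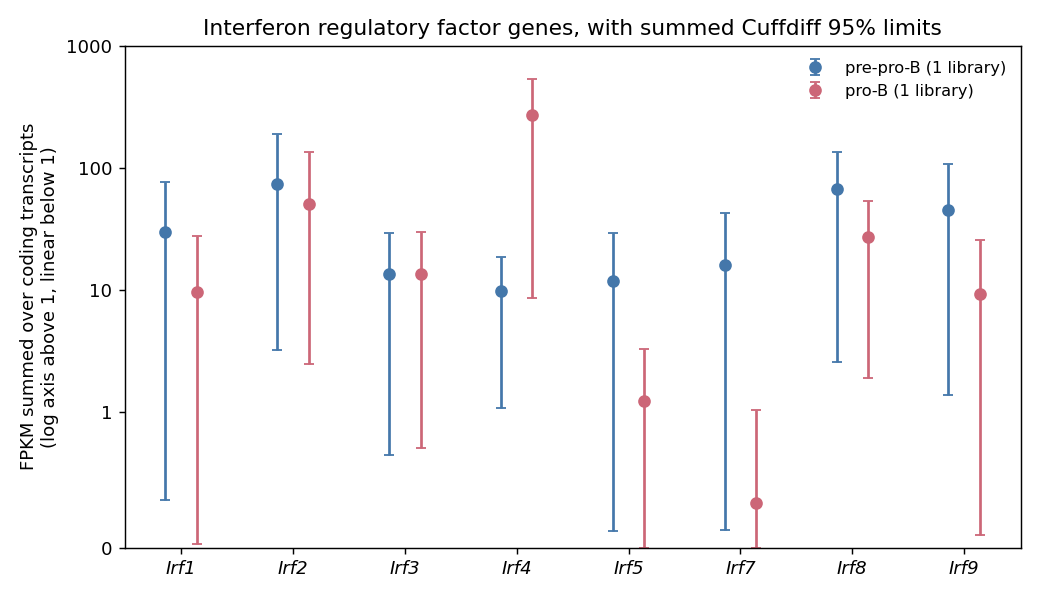
FPKM of the 8 genes, summed over coding transcripts, in the pre-pro-B (blue) and pro-B (red) library; points are single libraries, bars are the summed lower and upper 95% limits from Cuffdiff, and the vertical axis is logarithmic above 1 and linear below 1. *Irf4* stands at 9.90 in pre-pro-B and 272 in pro-B cells, and *Irf7* at 15.9 and 0.326; the bars of every gene overlap.

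*Irf4*, which acts at several steps of B cell development from the pre-B stage to the plasma cell, was the least abundant member in pre-pro-B cells but the most abundant in pro-B cells. Its single coding transcript NM_013674 (chromosome 13 of mm9, gene 30841095 to 30858796, plus strand) had an FPKM of 9.90 in the pre-pro-B library (interval 1.08 to 18.8) against 272 in the pro-B library (interval 8.54 to 536). This is a 27.5-fold difference, or 4.65 on the log2(FPKM + 1) scale, with intervals that overlapped between 8.54 and 18.8. Only 60 of the 10131 genes tested had a larger log2 ratio. At the nominal depth, these FPKM correspond to about 4171 and 114679 fragments.

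*Irf8*, the member most closely related to *Irf4* and a factor of dendritic, monocyte and B cell development, had the opposite direction. NM_008320 (chromosome 8, gene 123260258 to 123280594, plus strand) had an FPKM of 66.9 in the pre-pro-B library (interval 2.56 to 136) against 27.0 in the pro-B library (interval 1.90 to 53.9), a 2.48-fold lower value in pro-B cells with overlapping intervals. The order of this pair was therefore exchanged: the FPKM of *Irf8* was 6.76-fold that of *Irf4* in pre-pro-B cells, and the FPKM of *Irf4* was 10.1-fold that of *Irf8* in pro-B cells. The annotated gene Gm20388 spans *Irf8* on the same strand and was not used here.

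*Irf1* and *Irf2* bind the same sites, *Irf1* being known chiefly as an activator induced by interferon and *Irf2* as its antagonist. *Irf2* (NM_008391, chromosome 8, 47825099 to 47932812, plus strand) was the most abundant member in pre-pro-B cells, with an FPKM of 73.8 (interval 3.24 to 189), and had 50.2 in the pro-B library (interval 2.50 to 134), which is within 2-fold. *Irf1* (chromosome 11, 53583516 to 53591876, plus strand) had a summed FPKM of 30.0 in the pre-pro-B against 9.54 in the pro-B library, a 3.14-fold lower value. The annotated gene Gm17334 lies within *Irf1* on the opposite strand and was not used here.

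The 3 coding transcripts of *Irf1* did not move alike. NM_008390 held 70.2% of the gene's FPKM in the pre-pro-B library (21.1, interval 0.348 to 45.0) but 22.4% in the pro-B library (2.14, interval 0 to 7.14). NM_001159396 held 8.59% in the pre-pro-B library (2.58, interval 0 to 11.7) but 59.4% in the pro-B library (5.67, interval 0.0249 to 14.0). NM_001159393 had an FPKM of 6.36 and of 1.74. The transcript with the largest estimate thus differed between the libraries, although within each library the intervals of all 3 overlapped one another. While the sum was 3.14-fold lower in pro-B cells, NM_008390 was 9.84-fold lower and NM_001159396 was 2.20-fold higher. Their lengths (2138, 2092 and 2129 bases) are nearly the same and their outer ends are the same, and the intervals of each transcript overlapped between the cell types.

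*Irf9*, the DNA-binding subunit of the STAT complex that mediates type I interferon responses, was the third most abundant member in pre-pro-B cells. Its 3 transcripts (chromosome 14, gene 56222408 to 56228867, plus strand) summed to 45.7 in the pre-pro-B against 9.33 in the pro-B library, a 4.90-fold lower value. NM_001159418 was the main transcript in both libraries, with 38.3 (interval 1.39 to 77.2) and 6.79 (interval 0.0936 to 16.1), or 84.0% and 72.8% of the gene. The other transcripts were also lower in pro-B cells: NM_008394 had 4.89 and 2.02, and NM_001159417 had 2.42 and 0.521. *Rnf31*, which overlaps the start of the *Irf9* gene on the same strand, had 5.83 in pre-pro-B and 3.04 in pro-B cells.

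Among the factors activated by nucleic acid sensing, *Irf3*, which is expressed in most cells and held inactive until it is phosphorylated, had nearly the same level in both libraries. NM_016849 (chromosome 7, 52253018 to 52258218, plus strand) had an FPKM of 13.6 in the pre-pro-B library (interval 0.681 to 29.3) against 13.6 in the pro-B library (interval 0.736 to 29.7). Its log2 ratio of 0.01 changed sign with the scaling between the libraries, from -0.11 with TPM scaling to 0.13 with median-ratio scaling. *Irf3*, *Irf5* and *Irf7* overlap genes on the opposite strand, *Bcl2l12* (11.1 and 5.83), *Tnpo3* (63.7 and 75.1) and *Phrf1* (13.0 and 8.70), and the reads were aligned with a strand-specific setting.

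*Irf7*, the factor that amplifies type I interferon production and is abundant in plasmacytoid dendritic cells, had the largest difference among the lower members. Its summed FPKM (chromosome 7, gene 148448605 to 148452380, minus strand) was 15.9 in the pre-pro-B against 0.326 in the pro-B library, 48.7-fold lower, and its log2 ratio of -3.67 had 215 of the 10131 genes tested below it. In pre-pro-B cells NM_001252601 held 73.7% of this FPKM (11.7, interval 0.128 to 26.5), NM_016850 held 20.9% (3.33, interval 0 to 11.4) and NM_001252600 held 5.33% (0.848, interval 0 to 4.61). In pro-B cells nearly all of the remaining FPKM was assigned to NM_001252600 (0.326, interval 0 to 0.980), about 51.9 fragments at the nominal depth. NM_001252601 was listed at 0 (interval 0 to 0.0360) and NM_016850 at 2.83e-05. The transcript that was the least abundant of the gene in pre-pro-B cells was thus the main one in pro-B cells, at a level 2.60-fold lower than in pre-pro-B cells.

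*Irf5*, which acts downstream of Toll-like receptors and is best known in myeloid and B cells, showed the same arrangement. Its summed FPKM (chromosome 6, gene 29476625 to 29491869, plus strand) was 11.9 in the pre-pro-B against 1.22 in the pro-B library, 9.75-fold lower. NM_012057 held 69.9% of it in the pre-pro-B library (8.33, interval 0.126 to 18.6) and was assigned 7.37e-05 in pro-B cells, which corresponds to less than 1 fragment at the nominal depth. NM_001252382 had an FPKM of 3.58 in the pre-pro-B library (interval 0 to 10.7) against 1.22 in the pro-B library (interval 0 to 3.26). In Cuffdiff, reads that match several transcripts of a gene are divided among them by estimate. A sum over the transcripts of *Irf1*, *Irf5* or *Irf7* thus depends less on that division than its parts do.

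Of the 14 member transcripts with a mean FPKM of at least 1, 2 had intervals that did not overlap between the cell types, NM_012057 of *Irf5* and NM_001252601 of *Irf7*. Over all 12151 coding transcripts at that level the share was 4.50%. Both are transcripts whose pro-B estimate lay under the FPKM that 3 fragments give (0.0152 and 0.0189), and the intervals of the summed gene overlapped for both genes. The interval of NM_012057 in pro-B cells was 0 to 0, below its own estimate.

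**Figure D2:**
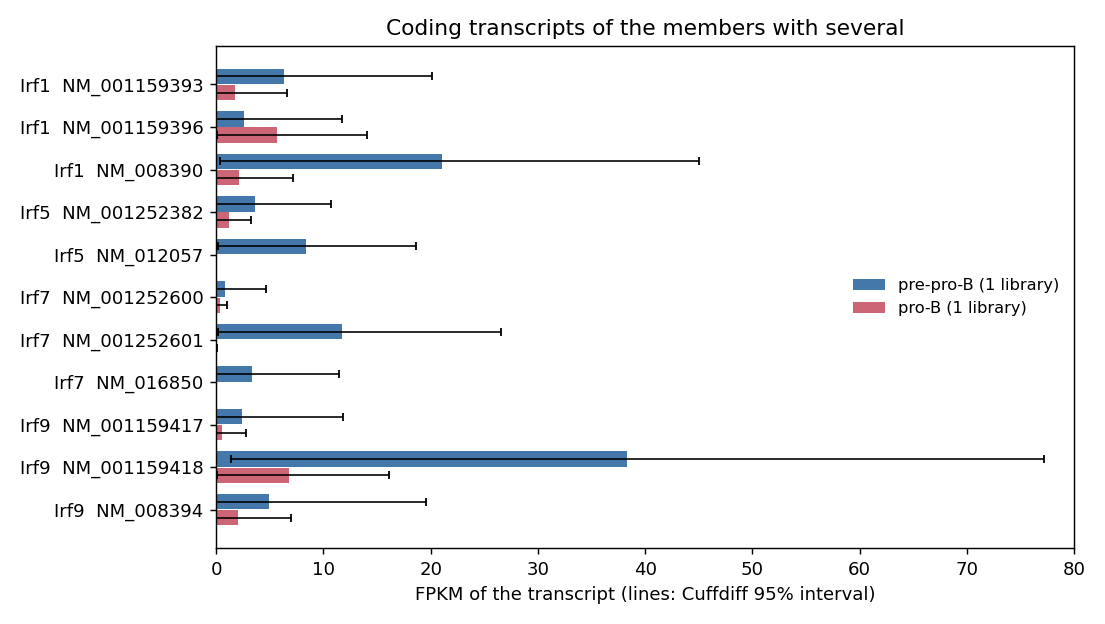
FPKM of each coding transcript of *Irf1*, *Irf5*, *Irf7* and *Irf9* in the pre-pro-B (blue) and pro-B (red) library, with the Cuffdiff 95% interval as a black line. Of these 11 transcripts, only NM_001159396 of *Irf1* is higher in pro-B cells (2.58 and 5.67), and NM_012057 of *Irf5* and NM_001252601 and NM_016850 of *Irf7* have no visible pro-B bar.

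The composition of the family differed between the libraries. The 8 genes summed to an FPKM of 268 in the pre-pro-B against 383 in the pro-B library, and without *Irf4* to 258 and 111, a 2.32-fold lower value. *Irf4* made up 3.70% of the family in the pre-pro-B library, against 71.0% in the pro-B library. *Irf2* and *Irf8* together made up 52.6% and 20.1%. A share also depends on the other members: that of *Irf3*, at nearly the same level, was 5.06% and 3.56%. The descending order was *Irf2*, *Irf8*, *Irf9*, *Irf1*, *Irf7*, *Irf3*, *Irf5* and *Irf4* in pre-pro-B cells, and *Irf4*, *Irf2*, *Irf8*, *Irf3*, *Irf1*, *Irf9*, *Irf5* and *Irf7* in pro-B cells. In both orders the intervals of all 7 neighbouring pairs overlapped. The highest member was 7.45-fold above the lowest in pre-pro-B cells and 834-fold above it in pro-B cells.

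**Figure D3:**
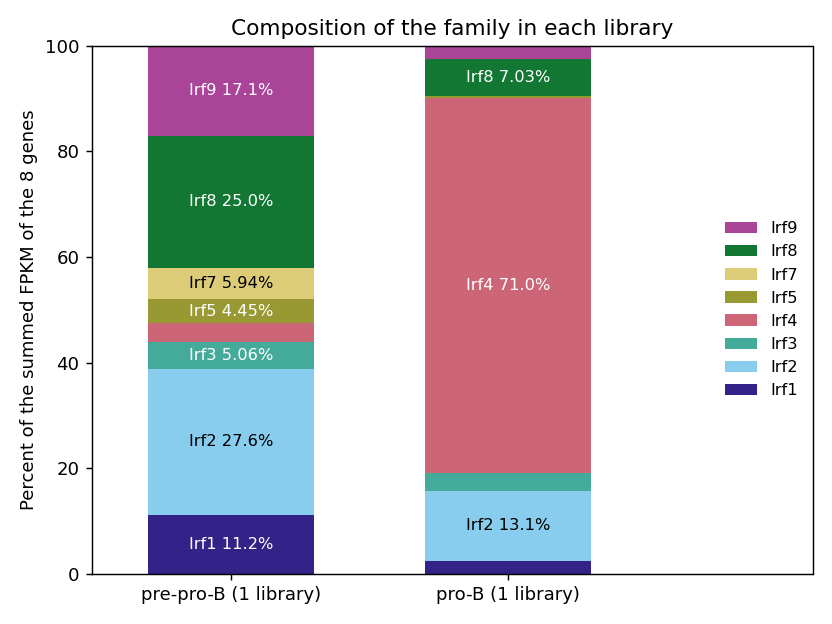
Share of each gene in the summed FPKM of the 8 genes, as stacked percentages for the pre-pro-B and the pro-B library. *Irf2* (27.6%) and *Irf8* (25.0%) take the largest shares in pre-pro-B cells and *Irf4* (71.0%) in pro-B cells.

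Promoter sequences of the members were searched for letters linked to interferon and Ets signaling, since 5 members were lower together while *Irf4* was higher. RefSeq promoters (250 bases before to 50 after a start site, table of build GRCm38.p6) were found for all 8 genes, 11 in number, and each matched mm9 exactly once. The motifs, searched on both strands, were the interferon-stimulated response element (GAAA, any 2 bases, GAAA), the Ets-IRF composite element (GGAA, any 2 bases, GAAA), the gamma-activated sequence bound by STATs (TTCNNNGAA) and the TATA box (TATAAA). Stretches around every match are shown, to set the members that differed between the cell types beside *Irf2*, with the motif letters in capitals. Coordinates are those of mm9, and each stretch is read in the direction of transcription.
Irf4, chr13:30841056-30841101, plus strand: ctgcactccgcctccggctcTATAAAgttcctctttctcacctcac
Irf8, chr8:123260067-123260252, plus strand: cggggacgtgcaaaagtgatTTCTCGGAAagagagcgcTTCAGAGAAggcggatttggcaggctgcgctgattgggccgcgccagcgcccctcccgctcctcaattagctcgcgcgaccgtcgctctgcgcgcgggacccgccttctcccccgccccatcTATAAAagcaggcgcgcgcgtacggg
Irf7, chr7:148452327-148452372, minus strand: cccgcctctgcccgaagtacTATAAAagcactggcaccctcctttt
Irf1, chr11:53583406-53583454, plus strand: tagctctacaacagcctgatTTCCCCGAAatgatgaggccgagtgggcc
Irf2, chr8:47824849-47824903, plus strand: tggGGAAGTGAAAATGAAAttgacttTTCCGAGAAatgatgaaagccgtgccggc

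The TATA letters were found in the promoters of *Irf4*, *Irf7* and *Irf8*, starting 26, 29 and 31 bases before the start site, and in 13.6% of all 32851 promoters of the same length. The gamma-activated sequence occurred in *Irf1* (90 bases before the start site), in *Irf2* (224 bases) and at 2 places in *Irf8* (171 and 153 bases), against 8.30% of all promoters. In *Irf2*, which was within 2-fold, the response element (241 bases before the start site, in 3.44% of all promoters) overlapped the composite element (247 bases, in 2.72%). No match to these letters was found in the windows of *Irf3*, *Irf5* and *Irf9*. A match is a description of the letters and not evidence of binding.

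The interferon receptors and their Janus kinase-STAT pathway were lower in pro-B cells or within 2-fold. Of 17 genes on this list, 16 had a mean FPKM of at least 1. At least 2-fold lower were 8 of them, 8 lay within 2-fold and 0 were higher, with a median log2 ratio of -0.82. Over all genes tested, 12.2% were higher and 17.9% were lower, with a median of -0.13. These are the shares to set beside the counts of this list and of each list that follows, markers included. Pairs of values given for a gene here and for the lists that follow are its FPKM in pre-pro-B and then in pro-B cells. *Ifnar2*, a subunit of the type I interferon receptor, had 146 in pre-pro-B and 24.4 in pro-B cells, and the other subunit, *Ifnar1*, had 33.3 and 12.8. *Il10rb*, a subunit shared by the type III interferon and interleukin 10 receptors, had 38.3 and 4.47, and *Stat3* had 47.6 and 10.3. *Stat2*, a partner of Irf9, had 13.9 and 10.8, which is within 2-fold. The largest log2 ratios of the list were those of *Ifngr2*, a subunit of the type II receptor (11.9 and 22.1), *Pias1*, an inhibitor of STAT signaling (31.8 and 39.0), and *Jak2* (32.3 and 34.0).

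Of 24 sensors, adaptors and kinases upstream of Irf3, Irf5 and Irf7, 23 had a mean FPKM of at least 1. At least 2-fold lower were 9 of them, 1 was higher and 13 lay within 2-fold, with a median log2 ratio of -0.69. The lowest ratios were those of *Tlr7*, a receptor of single-stranded RNA (43.2 in pre-pro-B and 0.174 in pro-B cells), *Sting1*, the adaptor of cytosolic DNA sensing (101 and 6.87), and *Cgas*, the DNA sensor that signals to it, with 6.98 in the pre-pro-B library and 0 listed for pro-B cells. *Tlr4*, the lipopolysaccharide receptor, was the gene that was higher (3.07 and 16.6). *Unc93b1*, which carries Toll-like receptors to endosomes, had 33.4 and 67.6, and *Traf6* had 27.0 and 49.5, both within 2-fold on the log2(FPKM + 1) scale. Among kinases that phosphorylate members of the family, *Tbk1* (28.1 and 25.2) and *Ikbke* (5.24 and 3.98) lay within 2-fold, and *Irak1*, which acts on Irf7 downstream of Toll-like receptors, was lower (22.5 and 7.29).

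Partners and cofactors of the family divided in both directions, with 4 of 13 genes tested higher, 4 lower and 5 within 2-fold (16 genes on the list). The Ets factors that recruit Irf4 and Irf8 to DNA had opposite differences: *Spi1*, which encodes PU.1, had 19.1 in pre-pro-B and 3.34 in pro-B cells, and *Spib* had 13.6 and 90.9. *Ets1* had 47.7 and 164. Of the AP-1 family members that pair with Irf4 and Irf8, *Batf* had 7.13 and 0.619, *Batf3* had 0.818 and was listed at 0 in pro-B cells, and *Jun* had 1.30 and 6.80. *Irf2bp2*, a corepressor that binds Irf2, had 142 and 32.8, while its relatives *Irf2bp1* (8.90 and 8.82) and *Irf2bpl* (6.67 and 5.56) lay within 2-fold.

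The list of genes on which Irf4 and Irf8 are known to act in B lineage or dendritic cells was mostly higher in pro-B cells. The list does not separate genes that these factors raise from genes that they lower, and an effect of either factor was not tested. Of 16 genes, 10 were tested, 7 were higher, 2 were lower and 1 lay within 2-fold, with a median log2 ratio of 1.79. The largest ratios were those of *Igll1* and *Vpreb1*, the surrogate light chain genes (1.17 and 798, and 0.359 and 335), and of *Ikzf3*, which encodes Aiolos (0.471 and 71.6). These genes are also markers of the pro-B stage, and 3 of the 16 (*Igll1*, *Vpreb1* and *Ebf1*) stand on the marker list of committed B lineage cells. *Ebf1*, 1 of the 7 higher genes, is also the gene that was targeted in the pre-pro-B cells. *Spi1* and *Klf4* (1.89 and 0.358) were lower and *Ikzf1* (240 and 133) lay within 2-fold. *Prdm1*, a plasma cell target of Irf4, had 0.0190 and 1.01.

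Interferon-stimulated genes as a list had a median near that of all genes tested. Of 28 genes 26 were matched, 16 were tested, 2 were higher, 4 were lower and 10 lay within 2-fold, with a median log2 ratio of -0.14 against -0.13. With a pseudocount of 0.1, 4 were higher, and with TPM scaling 7 were lower. The lower genes were *Bst2* (39.3 and 2.59), *Rtp4* (10.2 and 0.218), *Oasl2* (3.05 and 0.00859) and *Usp18*, and the higher genes were *Ifit2* (1.39 and 17.5) and *Xaf1* (4.64 and 17.8). Both *Isg15* (0.573 and 0.595) and *Ifit1* (0.572 and 0.138) were below an FPKM of 1 in each library. Of 18 ligand genes, which were interferons apart from *Il15*, 14 were listed at 0 in both libraries and 0 reached an FPKM of 1, the highest value being 0.186 for *Ifng* in pro-B cells.

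**Figure D4:**
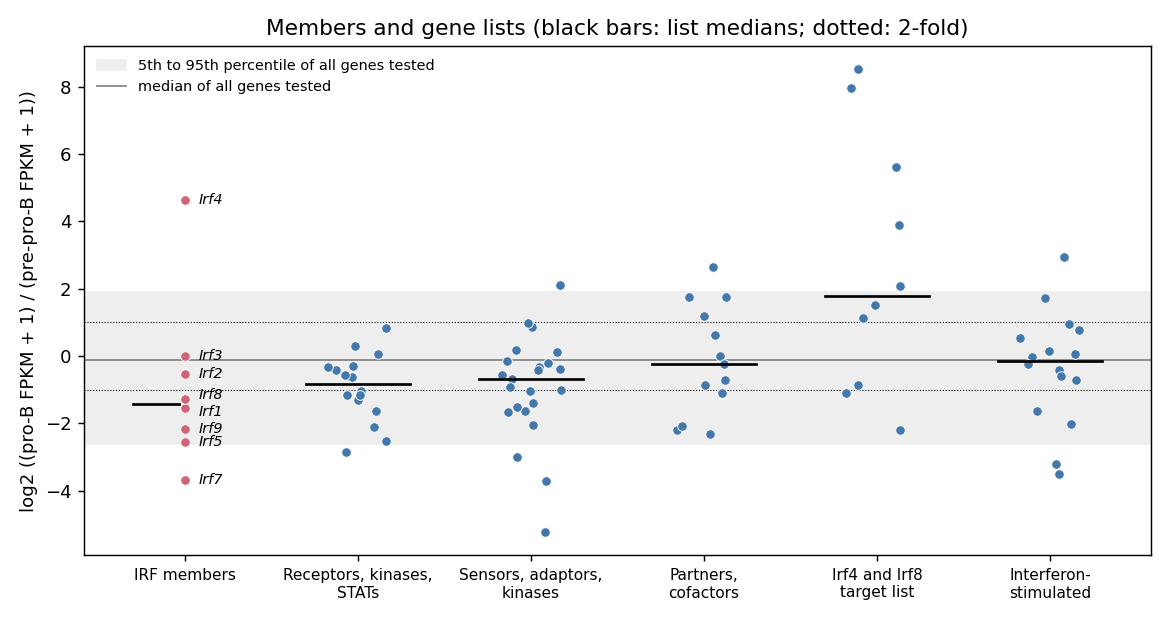
Log2 ratios of FPKM, pro-B over pre-pro-B (1 added to both), of the 8 members (red) and of the tested genes of 5 lists (blue); black bars are medians, the grey band holds the 5th to 95th percentile of all genes tested (-2.61 to 1.89), and dotted lines mark 2-fold. *Irf4* (4.65) lies above the band and *Irf7* (-3.67) below it.

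Markers of other cell types differed between the libraries together with the members. Of the committed B lineage markers, 8 of 8 were higher by 2-fold or more in pro-B cells (summed FPKM 72.0 in pre-pro-B and 2180 in pro-B cells), the direction of *Irf4*. *Ebf1*, the gene targeted in the pre-pro-B cells, is among these markers. Beside the lower *Irf1*, *Irf5*, *Irf7*, *Irf8* and *Irf9*, the genes listed as dendritic markers summed to 353 and 3.28 (7 of 8 matched, 4 of 4 tested lower). Most of the pre-pro-B sum came from *Ccr9* (212 and 0.661) and *Ly6d* (78.7 and 1.99). Whether these genes mark dendritic cells in these cultures was not tested. *Siglech* had 54.3 and 0.236, and *Itgax* had 8.07 and 0.294. The dendritic markers under a mean FPKM of 1 were at or near 0 in both libraries: *Clec9a* had 0 and 0.103, *Xcr1* had 0.0439 and 0, and *Zbtb46* had 0.165 and 0. The myeloid markers summed to 61.0 and 6.52 (7 of 8 matched, 3 of 3 tested lower), with *Mpo* at 35.7 and 0.122 and *Lyz2* at 5.39 and 0. The remaining tested marker, *Itgam*, had 19.7 in pre-pro-B cells and was 3.08-fold lower in pro-B cells. It made up nearly all of the pro-B sum, so the myeloid markers were not all near 0 there. *Csf1r* (0.170 and 0) and *Csf3r* (0.00624 and 0) were near 0 in both libraries, and *Elane* and *Ctsg* were listed at 0 in both. The T and natural killer markers summed to 86.5 and 3.66 (3 of 3 tested lower). The tested genes were *Cd3g* (36.8 and 0.0351), *Il2rb* (27.8 and 0.150) and *Klrb1c* (18.3 and 3.37). Of those under a mean FPKM of 1, *Cd4* had 1.15 and 0, *Cd8a* had 0.322 and 0, and *Ncr1* had 1.90 and 0. The progenitor markers summed to 958 and 3.59 (4 of 4 lower). The OP-9 stroma markers summed to 4.06 and 15.4 (3 of 4 tested higher, with a median log2 ratio of 1.22, the direction of *Irf4*). The higher genes were *Fn1* (1.16 and 5.16), *Cxcl12* (0.618 and 2.92) and *Col1a2* (0.707 and 2.82), and *Sparc* (1.13 and 2.81) lay within 2-fold on the log2(FPKM + 1) scale. Among those not tested, *Col3a1* had 0.242 and 1.13, *Dcn* was listed at 0 in both libraries and *Lum* at 0 in pre-pro-B cells. The part of these cell types in the levels of the members was not tested.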

How the data were processed

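RNA-seq of 1 *Ebf1* null pre-pro-B and 1 *Rag2* null pro-B library (97 base single-end reads) was used. The authors trimmed the reads, aligned them to mm9 and estimated FPKM per RefSeq transcript, which they deposited with a status and a 95% interval. The submitters' processing notes name TopHat 1.5 and Cuffdiff 2.1.1. The study's settings used strand-specific alignment, allowed up to 20 alignments per read, corrected for multi-reads and bias, and applied no scaling between libraries. Multi-read correction and the division of reads among isoforms affect single transcripts most. A further deposited table holds the authors' fold changes, p-values and q-values and 2 per-sample columns, and was not used.

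Gene names came from a RefSeq table of GRCm38.p6 (26173 of 26580 coding accessions matched), and FPKM were summed per gene over coding transcripts. Coordinates are those of GENCODE M1 on mm9. Genes with a mean FPKM of at least 1 were compared at a 2-fold difference on the log2(FPKM + 1) scale. FPKM carry no counts, so fragments were approximated from length and the nominal depth, and 3 fragments were taken as the floor. With 1 library per cell type no p-value was computed. The text names all members and, from each list, the 3 largest and 3 smallest log2 ratios and genes needed to say what the list is. Overlapping genes and single markers were named outside this rule, and some genes of the lists are not reported here by name. The members and lists were chosen with earlier results of these data known. Python 3.11.15, numpy 2.4.6, pandas 2.3.3 and matplotlib 3.10.9 were used, and the counting was tested on simulated data. Alternatives were other pseudocounts, scalings, filters, folds and choices of transcript.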

Additional observations from a re-analysis of the deposited data

Results flagged for a closer look

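The table also holds a non-coding transcript of *Irf3*, NR_045611, which none of the comparisons used. Its FPKM was 3.24 in the pre-pro-B library (interval 0 to 11.0) against 3.42 in the pro-B library (interval 0 to 11.3), both above the 0.0152 that 3 fragments would give. It is singled out because its level lies above that limit in data outside the comparisons. Like the coding transcript of *Irf3*, it had nearly the same level in both libraries.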

How the results depend on the processing

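The counts of members (1 higher and 5 lower) were the same with a pseudocount of 0.1 or none and with TPM or median-ratio scaling. The same counts held with the most abundant transcript of each gene. Keeping only transcripts of status OK could not change them, since all 15 member transcripts had that status in both libraries. At 4-fold, 1 of the 8 members was higher and 3 were lower, against 452 and 786 of the 10131 genes tested (1236 and 1811 at 2-fold). At a mean FPKM of at least 5 the lower genes numbered 1101, out of a smaller set of genes that pass this filter. TPM and median-ratio scaling moved the scale of pro-B against pre-pro-B FPKM by -0.12 and 0.13 in log2. The log2 ratio of *Irf7* was -5.61 without a pseudocount (-3.67 with it) and was -4.73 with TPM scaling, where 1 is added to larger values. The ratio of *Irf4* stayed between 4.62 and 4.78, and that of *Irf1* between -2.81 (its most abundant transcript) and -1.43. The most abundant transcript was chosen by its FPKM over both libraries. For *Irf1*, *Irf5* and *Irf7* it was the one that led in pre-pro-B cells, so this setting leaned towards lower ratios for these genes. NM_001159396, the largest transcript of *Irf1* in pro-B cells, had a log2 ratio of 0.90. With limits summed per gene, 0 members had intervals that did not overlap. Of the list counts, 93 stayed within 1.5 times their value and 15 did not. The 93 include the counts of the interferon ligand list, which had 0 genes tested at the main filter and stayed at 0 in every setting. No paired analysis was possible because each cell type has 1 library, and no library could be left out for the same reason.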
